A study of Homo sapiens with 8 samples.

Results

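Nuclear genes encode most subunits of the mitochondrial respiratory chain, and 91 of them were followed here among the 58735 genes of the deposited table. Members were the protein-coding genes whose symbols name a subunit of complex I (NDUFA, NDUFB, NDUFC, NDUFS and NDUFV), complex II (SDHA to SDHD), complex III (UQCR genes and CYC1), complex IV (COX4 to COX8) or ATP synthase, also called complex V (ATP5 genes). The rule took 37 genes of complex I, 4 of complex II, 10 of complex III, 19 of complex IV and 21 of complex V. NDUFA4 and its relative NDUFA4L2 were counted with complex IV, where NDUFA4 is known to sit. The rule used names alone and no measured value. It therefore also took genes that are not structural subunits, such as ATP5IF1, the inhibitor of ATP hydrolysis, which was counted with complex V.

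Poly(A) RNA was sequenced from HepG2, an established line of human hepatocellular carcinoma, in 4 libraries of cells that received a lentivirus overexpressing the de novo DNA methyltransferase DNMT3A and 4 libraries of cells that received a control lentivirus. The labels give the genotype of the DNMT3A libraries as DNMT3A overexpression and that of the control libraries as WT. The library names carry the prefix pLV_EGFP in both groups. The sources used here do not give the promoter of the vector, the multiplicity of infection, the time after infection or whether cells were cloned. Nothing in the labels says whether libraries of 1 group are separate infections or cultures. A p-value here therefore reflects the spread among these libraries alone, which may be technical.

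The respiratory chain passes electrons from NADH, through complex I, or from succinate, through complex II, by way of coenzyme Q to complex III, cytochrome c and complex IV, which reduces oxygen. Complexes I, III and IV pump protons across the inner mitochondrial membrane, and ATP synthase uses the gradient to make ATP. The subunits come from both the nucleus and mitochondrial DNA, and the nuclear genes are known targets of the transcription factors NRF1, the ETS factor GABP and YY1. Hepatocytes are rich in mitochondria, whereas hepatoma cells are known for a high rate of glycolysis.

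Values are FPKM, the deposited unit, in which reads are divided by gene length and library total. Each log2 change is the mean log2(FPKM + 1) of the DNMT3A libraries minus that of the controls, which understates the change of low genes. Tests are limma's moderated test over all 11620 genes with a mean of at least 1 FPKM, adjusted after Benjamini and Hochberg, with 0.05 as threshold. DNMT3A itself checked the labels. It stood at 9.75, 10.2, 8.51 and 7.26 FPKM in DNMT3A libraries 1 to 4, against 3.62, 3.89, 3.45 and 3.64 FPKM in control libraries 1 to 4. Each DNMT3A library lay above every control library (log2 change 1.09, limma adjusted p = 0.000122). A two-sided exact permutation test gave p = 0.0286, the lowest possible with 70 assignments. Transcripts of the transgene and of the endogenous gene cannot be told apart in this FPKM. Multiplying FPKM by gene length gave back whole reads, and these recovered reads numbered 15911019 to 17677093 per library. Liver markers were present in all libraries, with ALB, the serum albumin gene, at a log2 change of 0.00. The fetal serum protein AFP, the fibrinogen chain FGB and the thyroxine carrier TTR rose among the 8 liver markers tested, with log2 changes of 1.61, 1.61 and 1.38. Of the marker lists for other cells, 0 of 5 fibroblast genes and 0 of 5 blood and endothelial genes reached the level needed for testing, with summed levels of at most 0.0543 and 1.99 FPKM.

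Of the 91 subunit genes, 78 passed the filter and were tested. Among these 78, 9 fell with DNMT3A, 0 rose and 69 did not pass the test. Of all tested genes, 10.6% fell and 9.93% rose, so the share of subunits that fell, 11.5%, was near the background. The direction was more one-sided than the calls, since 66 of 78 subunits (84.6%) had a log2 change below 0, against 52.4% of all tested genes. With quantile normalization 59 of 78 did. Control library 4 by itself lay below the control mean in 67 of 78 subunits, and DNMT3A libraries 1 to 4 in 67, 62, 52 and 62. Control libraries 1 to 3 did so in 19, 22 and 46. A single control library could thus be as one-sided as the change between the groups. The skew of that change was not particular to the subunits. On the related mitochondrial lists given below, 92 of 121 tested genes (76.0%) had a log2 change below 0, with a median of -0.09. The median log2 change was -0.10 over the subunits and -0.01 over all tested genes, with a median standard error of 0.08 for a single subunit. Changes ran from -0.69 for ATP5ME to 0.36 for UQCRHL. At an unadjusted p under 0.05, 16 subunits were lower and 2 higher, against 18.4% and 16.6% of all tested genes. The DNMT3A and control libraries did not overlap for 16 subunits, all lower, while the background for groups apart was 13.0% lower and 12.1% higher. In bulk RNA, fewer cells that make a transcript and less of it per cell cannot be told apart.

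The 9 subunits that fell were NDUFC1 in complex I, SDHB and SDHD in complex II, UQCR10 and UQCRQ in complex III, COX4I1 and NDUFA4 in complex IV, and ATP5F1D and ATP5MD in complex V. Counted by complex, 1 of 33 tested genes of complex I fell, 2 of 4 of complex II, 2 of 10 of complex III, 2 of 12 of complex IV and 2 of 19 of complex V. In complex V, 19 of 19 log2 changes lay below 0 (18 with quantile normalization, 17 with array weights or without DNMT3A library 4), and in complex II 4 of 4, while in complex I 8 of 33 lay above 0. All 9 had a fall of less than 0.50 on the log2 scale. UQCR10, UQCRQ, ATP5F1D and NDUFC1 passed the threshold in all 20 alternative fits, and the other 5 lost the call in 3 to 9 of them. The change of ATP5F1D, whose principal transcript is 69.6% GC, was -0.42 here and -0.22 after a correction for length and GC content (limma adjusted p = 0.0280). Without control library 2 or without control library 3 those 4 genes alone were called, and without DNMT3A library 2 the count was 13, where 10.9% of all tested genes were lower. Among protein-coding genes only 14 subunits fell, where 13.4% of the genes tested were lower and 12.2% higher. With array weights 13 fell and 3 rose, where 16.6% were lower and 15.7% higher. With the replicate number as a block 8 fell, where 8.33% were lower and 7.86% higher, and without a filter on low values 4 fell, where 2.58% of 30436 genes were lower and 2.66% higher.

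**Figure D1:**
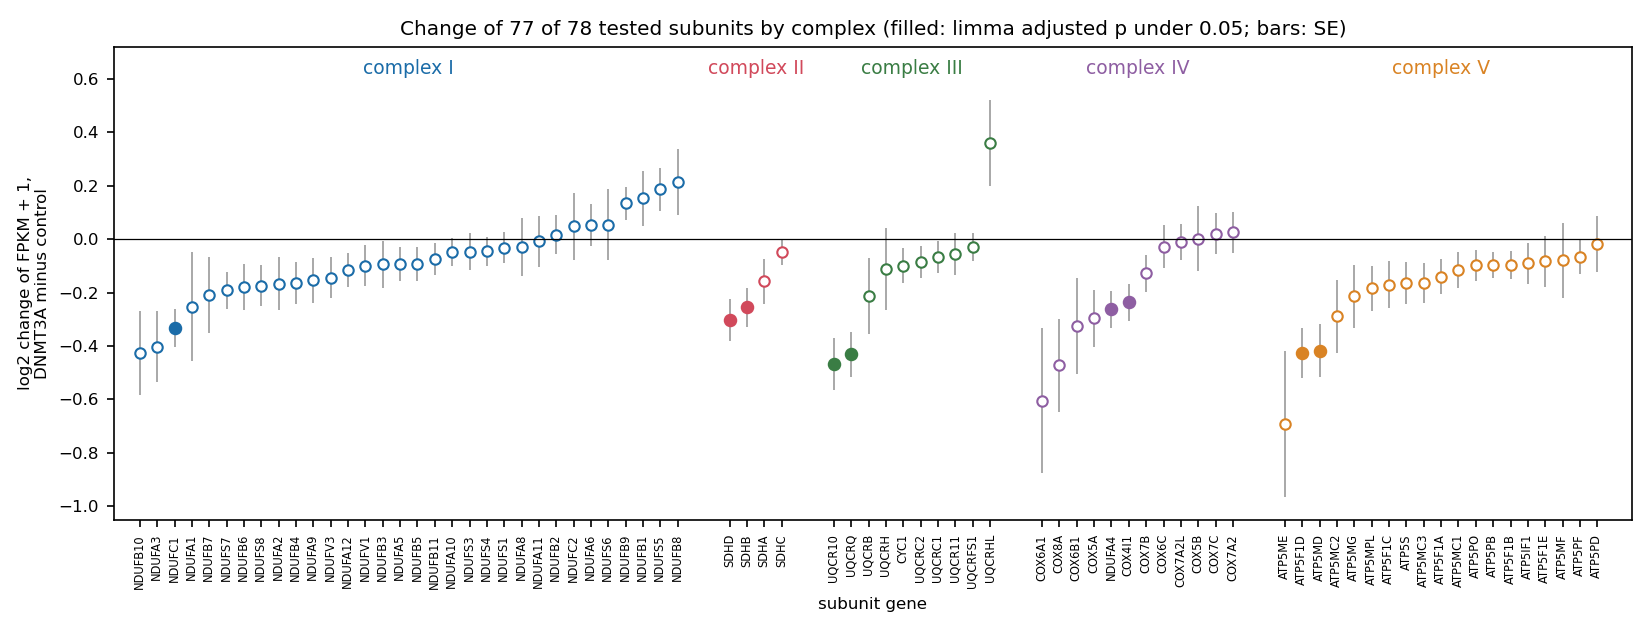
Log2 change of FPKM + 1, DNMT3A minus control, of 77 of the 78 tested subunits on the vertical axis, with genes ordered by change within each complex; bars are standard errors from limma and filled points are the 9 genes with an adjusted p under 0.05. The points run from -0.69 to 0.36, all 9 filled points lie below 0, and the 19 points of complex V all lie below 0.

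Promoter windows of 300 bases, from 250 bases before to 50 bases after a RefSeq gene start on GRCh38.p14, were available for 63 of the 78 tested subunits, with 76 windows because some genes have several starts. The windows were searched on both strands for CGCATGCG, the core of the NRF1 motif, for the ETS motif CCGGAAG and for the YY1 motif AAGATGGC; no ETS match shared bases with a YY1 match. Among the windows of tested subunits, 14.5% held the NRF1 core, against 3.65% of the windows of all tested genes and 2.02% of all 35116 windows. The ETS motif was in 27.6% of subunit windows, in 18.4% of those of all tested genes and in 10.3% of all windows. YY1 matches were in 15.8% of subunit windows, in 5.31% of those of all tested genes and in 2.89% of all windows. For the 8 fallen genes with a window (11 windows), the shares were 9.09%, 45.5% and 9.09%, or 1, 5 and 1 windows. The 5 ETS windows belong to different genes, UQCRQ, COX4I1, SDHB, SDHD and ATP5MD. NDUFC1 supplies several of the 11 windows, none with a match, so shares by window weigh it more than the other fallen genes. For the 55 subunits that did not pass (65 windows) the shares were 15.4%, 24.6% and 16.9%. A match is a description of the letters and not of binding, and methylation was not measured in these libraries. The windows of SDHB, SDHD and UQCRQ are shown because these 3 genes fell and hold between them all 3 motifs. Capitals mark the matches, a match on the other strand appears as its reverse complement, and the gene starts at base 251.
SDHB promoter, chr1:17053983-17054282, minus strand: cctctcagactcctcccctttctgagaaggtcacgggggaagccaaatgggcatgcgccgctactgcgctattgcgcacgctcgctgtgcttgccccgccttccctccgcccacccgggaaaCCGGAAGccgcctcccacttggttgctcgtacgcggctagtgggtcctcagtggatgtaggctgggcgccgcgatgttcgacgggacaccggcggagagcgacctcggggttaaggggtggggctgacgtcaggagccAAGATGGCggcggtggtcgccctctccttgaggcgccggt
SDHD promoter, chr11:112086623-112086922, plus strand: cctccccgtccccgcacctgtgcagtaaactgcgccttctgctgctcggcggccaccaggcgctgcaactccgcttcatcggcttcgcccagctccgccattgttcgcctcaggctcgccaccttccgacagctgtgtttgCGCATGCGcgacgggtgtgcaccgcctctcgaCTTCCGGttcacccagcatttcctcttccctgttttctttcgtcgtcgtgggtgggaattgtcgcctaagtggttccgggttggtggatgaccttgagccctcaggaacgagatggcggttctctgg
UQCRQ promoter, chr5:132866392-132866691, plus strand: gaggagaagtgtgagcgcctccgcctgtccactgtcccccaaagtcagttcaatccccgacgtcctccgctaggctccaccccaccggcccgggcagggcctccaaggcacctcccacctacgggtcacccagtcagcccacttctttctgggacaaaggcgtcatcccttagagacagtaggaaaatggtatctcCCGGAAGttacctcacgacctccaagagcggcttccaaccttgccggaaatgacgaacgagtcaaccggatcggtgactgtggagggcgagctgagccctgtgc
The SDHB window holds an ETS match from base 123 and a YY1 match from base 261. The SDHD window holds the NRF1 core from base 142 and an ETS match from base 174, and the UQCRQ window an ETS match from base 197. These windows hold 30, 27 and 18 CpG dinucleotides in the order printed, against a median of 21 over the windows of tested subunits and 26 over those of all tested genes.

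Complex I is the NADH dehydrogenase and the largest of the complexes, with a catalytic core and many accessory subunits. Its accessory subunit NDUFC1 (chr4:139266880-139302551) was the single member that fell. NDUFC1 had 13.5, 14.3, 14.3 and 12.2 FPKM in DNMT3A libraries 1 to 4, against 17.9, 18.8, 15.9 and 16.7 FPKM in control libraries 1 to 4. Every DNMT3A library lay below every control library, and the log2 change was -0.33 (SE 0.07, limma adjusted p = 0.0106). NDUFC2, its partner in the membrane arm, had a log2 change of 0.05 (limma adjusted p = 0.816) and ranged from 13.1 to 20.8 FPKM in DNMT3A libraries and from 14.4 to 15.9 FPKM in control libraries. Its highest value, 20.8 FPKM, was in DNMT3A library 4, without which its log2 change was -0.08.

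The core subunits that carry the flavin and the iron-sulfur clusters did not pass the test in any of the 6 tested cases, and all 6 had log2 changes between -0.19 and -0.03. Among them NDUFS7, which holds the last cluster before coenzyme Q, had 2.05, 2.34, 2.44 and 2.08 FPKM in DNMT3A libraries, against 2.64, 2.69, 2.88 and 2.53 FPKM in control libraries. The groups did not overlap for NDUFS7, yet its log2 change of -0.19 missed the threshold (limma adjusted p = 0.0782). NDUFS1, the largest core subunit, had a log2 change of -0.03, which turned above 0 with quantile normalization, and NDUFV1, the flavin-binding subunit, one of -0.10.

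The accessory subunits with the highest FPKM of complex I were NDUFS5, NDUFB7 and NDUFB10, and none passed the test. NDUFS5 had 125, 131, 159 and 141 FPKM in DNMT3A libraries, against 126, 130.0, 115 and 116 FPKM in control libraries. Its groups overlapped, and its log2 change of 0.19 was above 0 (limma adjusted p = 0.133); with array weights, which give each library a weight by its spread, it passed the threshold (limma adjusted p = 0.0211). NDUFB7 had 46.5, 56.9, 52.2 and 34.1 FPKM in DNMT3A libraries, against 60.9, 55.1, 52.3 and 48.2 FPKM in control libraries. DNMT3A library 4 was the lowest of the 8, and the log2 change was -0.21 (limma adjusted p = 0.327). NDUFB10 had the most negative log2 change of complex I, -0.43, and missed the threshold (limma adjusted p = 0.0857). Its values were 36.6, 46.2, 42.2 and 26.0 FPKM in DNMT3A libraries, against 57.0, 52.8, 46.8 and 44.3 FPKM in control libraries. The groups overlapped through DNMT3A library 2, without which NDUFB10 passed the threshold (limma adjusted p = 0.0421).

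Complex II, succinate dehydrogenase, is the only complex built wholly from nuclear genes and is also an enzyme of the citric acid cycle. Its iron-sulfur subunit SDHB (chr1:17018722-17054170) and its membrane anchor SDHD (chr11:112086773-112120013) fell. SDHB had 22.8, 23.1, 21.4 and 19.3 FPKM in DNMT3A libraries, against 26.3, 27.6, 26.6 and 23.5 FPKM in control libraries. All 4 DNMT3A values lay below all 4 control values, with a log2 change of -0.26 (SE 0.07, limma adjusted p = 0.0352). SDHD had 19.3, 16.8, 20.0 and 21.2 FPKM in DNMT3A libraries, against 23.4, 25.4, 25.5 and 21.8 FPKM in control libraries. The groups were apart by less than 1 FPKM, between DNMT3A library 4 and control library 4, and the log2 change was -0.30 (SE 0.08, limma adjusted p = 0.0248).

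The flavoprotein subunit SDHA had 21.0, 22.0, 20.8 and 16.9 FPKM in DNMT3A libraries, against 24.7, 22.6, 21.6 and 21.3 FPKM in control libraries. DNMT3A library 2 lay above control libraries 3 and 4, so the groups overlapped, and the log2 change was -0.16 (limma adjusted p = 0.213). SDHA has transcribed pseudogenes, among them SDHAP3 at a mean of 8.88 FPKM. They took 11.5% of the reads counted for the gene and its pseudogenes together, so the separate value of SDHA is uncertain. SDHC, the other anchor, had the smallest change of the complex, -0.05. The calls in complex II were sensitive to single libraries. SDHB lost its call when control library 1, 2 or 3, DNMT3A library 3, or DNMT3A library 4 was left out, with a limma adjusted p of 0.0581 to 0.0949. SDHD lost its call when control library 2, control library 3 or DNMT3A library 1 was left out, with a limma adjusted p of 0.0566 to 0.075.

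Complex III, the cytochrome bc1 complex, held the 2 falls with the lowest adjusted p of all subunits. Both were small subunits without a redox centre. UQCR10 (chr22:29767369-29770413) had 45.8, 47.1, 47.1 and 37.8 FPKM in DNMT3A libraries, against 70.2, 65.1, 58.0 and 54.4 FPKM in control libraries. The highest DNMT3A value was below the lowest control value, and the log2 change was -0.47 (SE 0.10, limma adjusted p = 0.00944). UQCRQ (chr5:132866560-132868031) had 38.6, 40.1, 47.5 and 44.9 FPKM in DNMT3A libraries, against 57.5, 61.8, 61.7 and 51.1 FPKM in control libraries. Its groups were also apart, with a log2 change of -0.43 (SE 0.08, limma adjusted p = 0.00768).

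The other subunits of complex III did not pass the test, among them both core proteins and both catalytic subunits made in the nucleus. UQCRC1, a core protein on the matrix side, had 72.2, 72.6, 81.3 and 78.6 FPKM in DNMT3A libraries, against 81.9, 80.7, 81.3 and 75.2 FPKM in control libraries. UQCRC2, the second core protein, had 75.1, 69.7, 73.7 and 69.2 FPKM in DNMT3A libraries, against 82.3, 71.9, 73.8 and 77.4 FPKM in control libraries. The groups overlapped for both, and the log2 changes were -0.07 and -0.08. UQCRH, the hinge protein that binds cytochrome c1, had 74.1, 79.5, 71.9 and 47.3 FPKM in DNMT3A libraries, against 86.3, 72.3, 67.5 and 65.3 FPKM in control libraries. DNMT3A library 4 was again the lowest of the 8, and the log2 change of UQCRH was -0.11 with it and 0.05 without it. UQCRHL is a near-identical copy of UQCRH with a log2 change of 0.36 (limma adjusted p = 0.142), and reads of both can be split between them, so each is uncertain. Cytochrome c1 (CYC1) had a log2 change of -0.10 and the Rieske iron-sulfur protein (UQCRFS1) one of -0.03.

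Complex IV, cytochrome c oxidase, has its catalytic subunits encoded in mitochondrial DNA, and its nuclear subunits surround them. COX4I1 (chr16:85798633-85807044), the regulatory subunit 4 that binds ATP, had 28.7, 30.6, 31.8 and 27.5 FPKM in DNMT3A libraries, against 37.2, 37.4, 33.6 and 32.4 FPKM in control libraries. The groups were apart, with a log2 change of -0.24 (SE 0.07, limma adjusted p = 0.0376). NDUFA4 (chr7:10931951-10940256), first assigned to complex I, had 24.7, 22.2, 23.6 and 25.6 FPKM in DNMT3A libraries, against 31.2, 29.5, 29.5 and 26.0 FPKM in control libraries. DNMT3A library 4 and control library 4 were the closest pair across the groups, and the log2 change was -0.26 (SE 0.07, limma adjusted p = 0.0255). COX4I1 lost its call when control library 1, 2 or 3, DNMT3A library 1, or DNMT3A library 4 was left out, with a limma adjusted p of 0.0643 to 0.101. NDUFA4 lost its call when control library 1, 2 or 3, or DNMT3A library 3 was left out, with a limma adjusted p of 0.0672 to 0.071.

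The subunits of complex IV with the highest FPKM were COX6B1, COX8A and COX5A, and library 4 was the lowest DNMT3A library for each. COX6B1, which faces the intermembrane space, had 82.3, 82.6, 81.9 and 45.0 FPKM in DNMT3A libraries, against 98.6, 90.7, 84.1 and 83.3 FPKM in control libraries. Library 4 stood far below the other DNMT3A libraries, and the log2 change was -0.33 with it (limma adjusted p = 0.225) and -0.11 without it. COX8A, the smallest nuclear subunit, had 79.3, 83.3, 62.9 and 43.0 FPKM in DNMT3A libraries, against 94.6, 89.6, 89.2 and 89.0 FPKM in control libraries. Its groups were apart and its control libraries lay close together, yet the spread of the DNMT3A libraries left it short of the threshold (log2 change -0.47, limma adjusted p = 0.0844). Without DNMT3A library 4 the change of COX8A was -0.28, and without DNMT3A library 2 COX8A passed (limma adjusted p = 0.0415). COX5A had 73.6, 74.3, 70.5 and 51.6 FPKM in DNMT3A libraries, against 84.2, 84.3, 80.8 and 79.7 FPKM in control libraries. The groups were apart, the log2 change was -0.30 (limma adjusted p = 0.0796), and without DNMT3A library 4 the change was -0.17 and passed (limma adjusted p = 0.0441).

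COX6A1, the widely expressed form of subunit 6A, had the most negative log2 change of complex IV, -0.61, with no call (limma adjusted p = 0.145). Its values were 16.8, 15.6, 11.7 and 5.63 FPKM in DNMT3A libraries, against 22.5, 18.4, 15.7 and 16.6 FPKM in control libraries. Without DNMT3A library 4 the change was -0.30. Its 2 pseudogenes together took 16.2% of the reads of the gene and its pseudogenes, so the value of COX6A1 is uncertain. Of these, COX6A1P2 had 11.5, 10.8, 12.9 and 9.82 FPKM in DNMT3A libraries and 16.0, 12.7, 11.1 and 11.5 FPKM in control libraries. Tissue-restricted forms of complex IV subunits were at or near 0. COX6A2, COX7B2 and COX8C were listed at 0 in all 8 libraries, and COX4I2, COX6B2 and COX7A1 had means of 0.0228, 0.00928 and 0.0912 FPKM. NDUFA4L2, a relative of NDUFA4 known to respond to hypoxia, had a mean of 0.130 FPKM and was not tested. Also untested were ATP5MGL, a relative of ATP5MG, and the read-through genes ATP5MF-PTCD1 and NDUFC2-KCTD14, with means of 0.0271, 0.0108 and 0 FPKM.

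**Figure D2:**
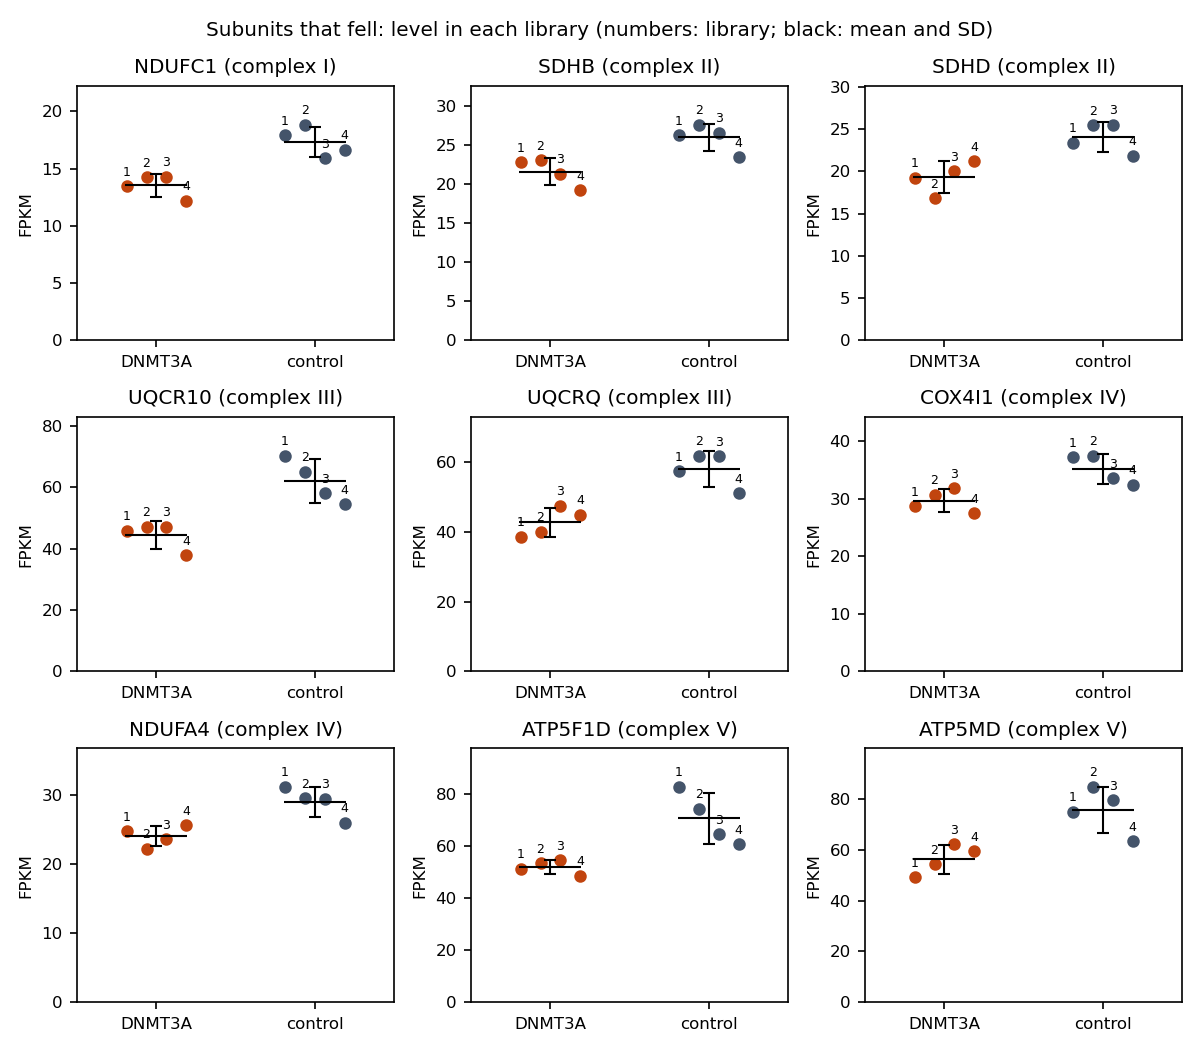
FPKM of the 9 subunits that fell, 1 panel each, with the 4 DNMT3A libraries left of the 4 control libraries; digits give the library number and black bars the mean and SD. In all 9 panels the highest DNMT3A value lies below the lowest control value, as for UQCR10, at most 47.1 FPKM in DNMT3A libraries and at least 54.4 FPKM in control libraries.

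ATP synthase joins a catalytic F1 head to a membrane F0 part through a central and a peripheral stalk. ATP5F1D (chr19:1241746-1244826), the delta subunit of the central stalk, had 51.3, 53.4, 54.4 and 48.6 FPKM in DNMT3A libraries, against 82.6, 74.3, 64.5 and 60.5 FPKM in control libraries. DNMT3A values lay within 6 FPKM of each other and below all control values, which were spread more widely, and the log2 change was -0.42 (SE 0.09, limma adjusted p = 0.0124). ATP5MD (chr10:103389041-103396492), a small membrane subunit that helps synthases pair, had 49.2, 54.3, 62.1 and 59.4 FPKM in DNMT3A libraries, against 74.9, 84.6, 79.3 and 63.4 FPKM in control libraries. The groups were apart, with a log2 change of -0.42 (SE 0.10, limma adjusted p = 0.0173). The call of ATP5MD was lost without control library 2 (limma adjusted p = 0.0509) or control library 3 (limma adjusted p = 0.0537).

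The other F1 subunits did not pass. ATP5F1B, the catalytic beta subunit, had the highest FPKM of all subunits, with 323, 318, 328 and 313 FPKM in DNMT3A libraries, against 358, 332, 345 and 338 FPKM in control libraries. Its groups were apart, and its log2 change was small, -0.10 (SE 0.05, limma adjusted p = 0.214). ATP5F1C, the gamma subunit that turns inside the head, had 68.1, 62.2, 71.1 and 83.9 FPKM in DNMT3A libraries, against 78.9, 84.8, 81.8 and 74.5 FPKM in control libraries. Library 4 was the highest DNMT3A library here, the groups overlapped, and the log2 change was -0.17 (limma adjusted p = 0.197), or -0.25 without library 4 (limma adjusted p = 0.0303). The alpha subunit ATP5F1A had a log2 change of -0.14 and the epsilon subunit ATP5F1E one of -0.08.

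In the membrane part, ATP5ME, the e subunit at the contact between paired synthases, had the most negative log2 change of all 78 subunits, -0.69 (limma adjusted p = 0.102). It had 10.9, 12.4, 8.38 and 3.69 FPKM in DNMT3A libraries, against 14.6, 12.7, 13.3 and 14.7 FPKM in control libraries. The groups were apart by less than 1 FPKM, and DNMT3A library 4 lay far below the other 7 libraries. The change passed the threshold without DNMT3A library 4, at -0.37 (limma adjusted p = 0.0486), and without DNMT3A library 2, at -0.88 (limma adjusted p = 0.0495).

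The genes ATP5MC1, ATP5MC2 and ATP5MC3 encode the same mature c subunit of the rotating ring. ATP5MC3 made up 41.2% ± 1.32 of their summed FPKM in DNMT3A libraries and 40.9% ± 1.24 in control libraries (SD, n = 4 each). ATP5MC1 made up 35.6% ± 3.47 in DNMT3A libraries and 34.0% ± 1.10 in control libraries, and ATP5MC2 23.2% ± 3.26 in DNMT3A libraries and 25.1% ± 1.16 in control libraries. FPKM divides by deposited lengths of 2615, 3991 and 6780 bases for ATP5MC1, ATP5MC2 and ATP5MC3, whose principal transcripts have 614, 1950 and 5484. Per kb of principal transcript, scaled to recovered reads, they averaged 115, 36.4 and 38.8 in DNMT3A libraries. The control means were 123, 43.4 and 42.8. ATP5MC1 was then the highest, so the order of these genes depends on the length used. None of the 3 passed the test on its own. Of the 4 tested genes of the peripheral stalk 0 passed, with log2 changes from -0.10 to -0.02, and the groups were apart for ATP5PB alone among them. ATP5IF1, the inhibitor of ATP hydrolysis, had a log2 change of -0.09 (limma adjusted p = 0.44).

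Summed over its genes, each complex had a lower mean level in the DNMT3A libraries, and for 3 of the 5 the groups did not overlap. Complex II summed to 65.1 to 71.2 FPKM in DNMT3A libraries, against 74.8 to 83.7 FPKM in control libraries, a mean of 85.4% of control. Complex IV summed to 370.0 to 483 FPKM in DNMT3A libraries, against 486 to 563 FPKM in control libraries, or 86.2% of control. DNMT3A library 4 was the lowest by far, the other DNMT3A libraries lay between 471 and 483 FPKM, and without library 4 the mean was 91.3% of control. Complex V summed to 809 to 850.2 FPKM in DNMT3A libraries, against 873 to 961 FPKM in control libraries, or 89.0% of control. Complex I, at 95.8%, and complex III, at 89.1% of control, had overlapping groups. Such sums are led by the highest genes, and no test was made of them. No background was worked out for sums, and of single tested genes 13.0% had groups apart with DNMT3A lower. ATP5F1B made up 39.1% of the sum of complex V in DNMT3A libraries and 37.2% in control libraries, and 22.0% of the difference between the groups, beside 19.1% for ATP5MD and 18.3% for ATP5F1D. FPKM values are relative to the library total. The total that the FPKM imply was 0.994 to 1.04 times the recovered reads in DNMT3A libraries (1.04 in library 2) and 0.995 to 1.01 times in control libraries, and the sources used here do not say why. With median-ratio scaling, which does not depend on that total, 9 subunits fell and the median change was -0.09. Subunits took 0.651% to 0.686% of recovered reads in DNMT3A libraries and 0.678% to 0.758% in control libraries, while mitochondrially encoded genes took 9.97% to 11.7% in DNMT3A libraries and 10.1% to 12.7% in control libraries.

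The 8 libraries were not equally placed within their groups. The median deviation of the 78 subunits from the control mean was -0.11, -0.11, -0.06 and -0.15 on the log2 scale in DNMT3A libraries 1 to 4, against 0.06, 0.04, -0.02 and -0.09 in control libraries 1 to 4. Control library 4 therefore lay lower than DNMT3A library 3. Over all tested genes the same median stayed between -0.02 and 0.01 in each library.

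**Figure D3:**
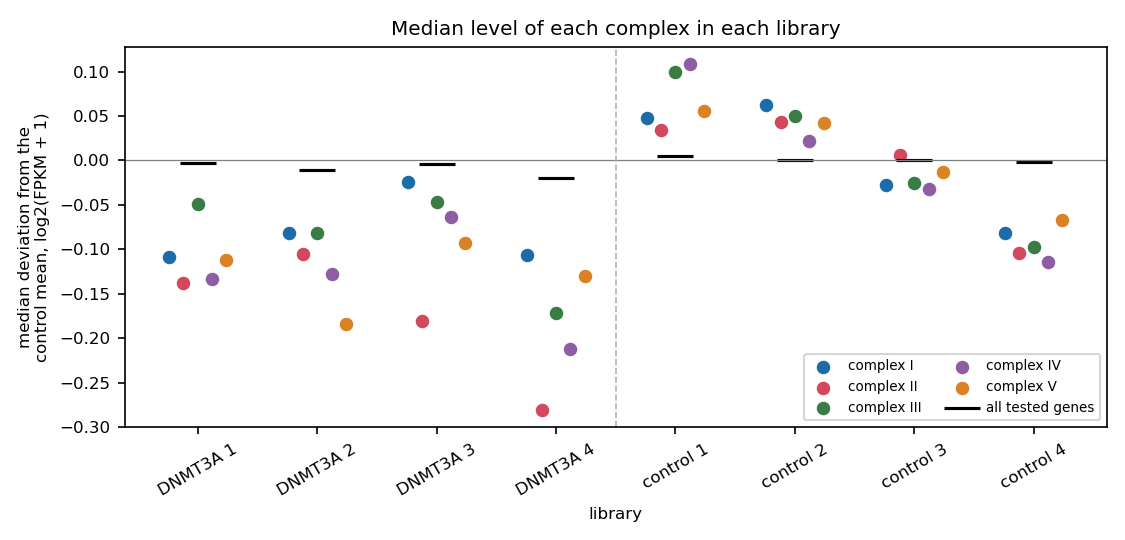
Median deviation of each complex from the control mean on the log2(FPKM + 1) scale (vertical axis) in each of the 8 libraries, DNMT3A on the left; black dashes are all 11620 tested genes. DNMT3A libraries lie below 0 for every complex, control library 4 does so too, and the lowest point is complex II in DNMT3A library 4 at -0.28.

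DNMT3A library 4 stood apart from the other DNMT3A libraries in a subset of subunits. In 18 of 78 (23.1%) it lay more than 0.3 on the log2 scale below the mean of DNMT3A libraries 1 to 3, against 9.89% of all tested genes. It was the lowest of all 8 libraries for 36 subunits. Across the 78 subunits, the deviation of library 4 from its group had a Spearman correlation of -0.46 with the GC content of the principal transcript (the one that APPRIS marks in GENCODE 29), and that of DNMT3A library 2 one of 0.52. Over all tested genes with a GC value the same coefficients were -0.53 and 0.62, and 0.38 for control library 1, while the other 5 libraries lay between -0.20 and -0.02. These are descriptions across genes of 1 library, which share its depth and base composition. Each deviation is taken from the other 3 libraries of the group, so a low library 4 by itself raises the deviation of library 2. The 2 coefficients of opposite sign are therefore not fully separate observations. A low library 4 raises the deviations of DNMT3A libraries 1 and 3 in the same way. Their coefficients were -0.08 and -0.02 over all tested genes, and 0.09 and 0.05 over the subunits. The coefficient of library 2 was thus not shared by libraries 1 and 3, and the reason was not tested. NDUFA1, an X-linked accessory subunit of complex I, had 26.9, 26.0, 21.9 and 12.8 FPKM in DNMT3A libraries, against 31.6, 23.7, 23.1 and 23.8 FPKM in control libraries. DNMT3A library 4 was the lowest and control library 1 the highest of the 8. Its log2 change was -0.25 with library 4 and -0.03 without it.

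**Figure D4:**
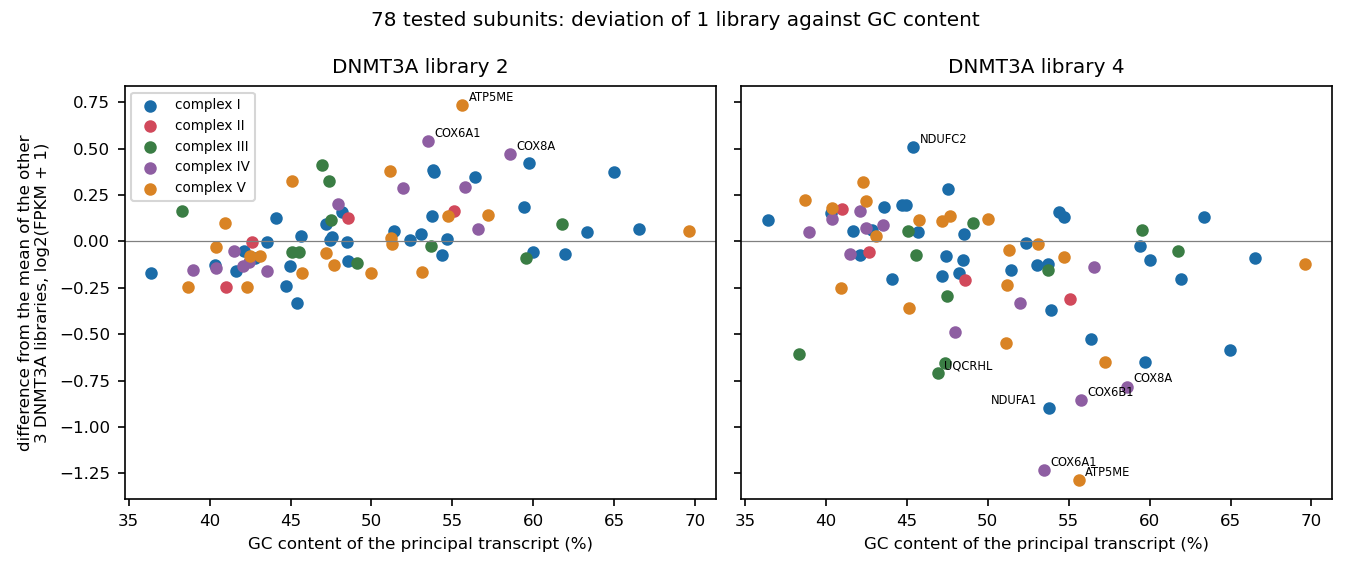
Deviation of DNMT3A library 2 (left) and DNMT3A library 4 (right) from the mean of the other 3 DNMT3A libraries, on the log2(FPKM + 1) scale, against the GC content of the principal transcript in percent; each point is 1 of the 78 tested subunits. ATP5ME, COX6A1 and COX8A are among the highest in library 2 and the lowest in library 4. The panels share libraries, so a low value in library 4 raises the deviation of library 2, as it does those of libraries 1 and 3.

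Correcting each library for smooth trends on gene length and GC content, an alternative chosen after the data were seen, kept the 9 calls, with ATP5F1D reduced as given above, and added NDUFA3 and NDUFB10, both lower, where 14.2% of all tested genes were called lower. Under voom, limma's weighting for counts, on recovered reads, also chosen after the data were seen, 14 were called lower, among them all 9, where 10.1% of all tested genes were. Without DNMT3A library 4, 7 of the 9 were kept, COX4I1 and SDHB were lost, ATP5F1C, ATP5ME and COX5A were called lower (10.2% of all tested genes were) and UQCRHL was called higher (9.63% were). The part that base composition plays in the calls was not tested beyond these values. Subunit transcripts are short, with a median principal transcript of 1119.5 bases against 2827 for all tested genes. Among all tested genes the median log2 change followed gene length, at -0.05, -0.04, -0.01 and 0.03 in 4 equal bins from the shortest to the longest genes. The 42, 17, 9 and 10 subunits in the same bins had medians of -0.11, -0.10, -0.09 and -0.15. A correction for length alone kept all 9 calls.

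Several subunits that every complex I needs were listed at very low levels, and most of these, though not NDUFA9, overlapped largely with exons of another gene on the same strand. In 7 subunits at least 40% of the principal transcript was covered by exons of another gene on its strand, and these had a median of 1.43 FPKM, with 5 under 2 FPKM. Not all of the 7 were low, since ATP5PO, with 70.3% overlap, had 8.66 FPKM and ATP5MF, with 46.2%, had 13.8 FPKM. For the 73 other subunits the median was 23.7 FPKM, with 2 under 2 FPKM, NDUFA9 at 1.22 FPKM with 11.8% overlap and ATP5S at 1.62 FPKM. Both the 40% bound and the leaving out of tissue-restricted forms, read-through genes and UQCRHL were chosen after the levels were seen. NDUFV2, the iron-sulfur subunit beside NDUFV1, had 0.594 to 0.909 FPKM in DNMT3A libraries and 0.648 to 1.14 FPKM in control libraries with 82.9% overlap. Its pseudogene NDUFV2P1 had a mean of 1.42 FPKM and took 37.0% of the reads of gene and pseudogene together. NDUFA13, also known as GRIM-19, had a mean of 0.363 FPKM with 44.1% overlap, and NDUFA7 one of 0.215 FPKM with 75.9% overlap. NDUFB8 and NDUFA11 passed the filter at 1.79 and 1.43 FPKM with 71.7% and 67.0% overlap. The level of these genes relative to other subunits is therefore uncertain, and the cause of the low values was not tested. The sources used here name no counting program and do not say how reads of overlapping genes were treated. They also name no step that marks strand. With exons on both strands counted, NDUFB2, ATP5ME, NDUFB11 and NDUFA1 also passed 40%, at 7.37, 11.3, 34.3 and 23.7 FPKM.

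**Figure D5:**
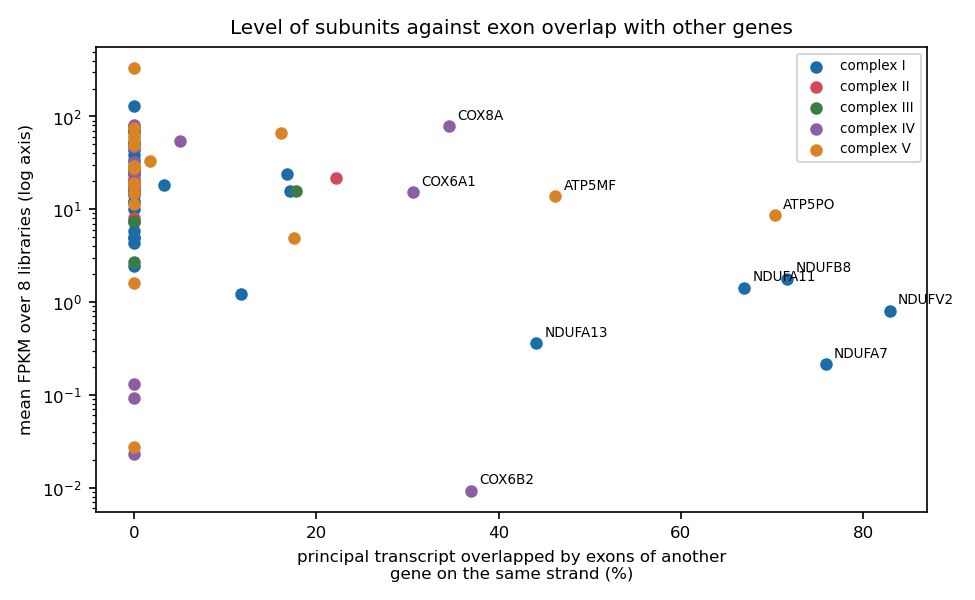
Mean FPKM over the 8 libraries on a log axis against the percentage of the principal transcript overlapped by exons of another gene on the same strand; each point is 1 subunit listed above 0, and read-through genes are left out. The 5 complex I genes beyond 40% overlap lie between 0.215 and 1.79 FPKM, while most subunits without overlap lie above 10 FPKM. ATP5PO and ATP5MF, also beyond 40%, lie higher, at 8.66 and 13.8 FPKM.

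Genes that build and serve the complexes were counted in the same fit. Over all these lists 16 of 121 tested genes fell (13.2%) and 4 rose, where 10.6% of all tested genes fell and 9.93% rose. Of 52 tested assembly factors 8 fell (15.4%) and 4 rose. The falls were in 3 of 18 factors of complex I, 4 of 22 of complex IV and 1 of 2 of complex V, and the rises in 2 of complex I, 1 of 6 of complex III and 1 of complex IV. NDUFAF3, an early assembly factor of complex I, fell to 8.32 ± 0.449 FPKM in DNMT3A libraries, against 12.1 ± 1.08 FPKM in control libraries (SD, n = 4 each; log2 change -0.49, limma adjusted p = 0.00197). COA7, a complex IV factor of the intermembrane space, fell by 0.38 on the log2 scale and FASTKD2, a mitochondrial RNA-binding protein, by 0.25. PET117, another complex IV factor, fell by 0.46 and lost its call without control library 1 or 2. The highest of the assembly factors by mean FPKM were NDUFAB1, the acyl carrier protein that is also part of complex I, HIGD1A, a hypoxia-inducible protein of the inner membrane, and LRPPRC, which stabilises mitochondrial transcripts. Their log2 changes were -0.01, -0.12 and -0.08, without a call.

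Among the assembly factors that rose, NUBPL, which delivers iron-sulfur clusters to complex I, had 6.63, 5.73, 5.84 and 6.20 FPKM in DNMT3A libraries, against 3.55, 3.44, 3.47 and 3.78 FPKM in control libraries. The groups were far apart (log2 change 0.64, limma adjusted p = 0.000207). NUBPL lies on chromosome 14 among genes that were raised in common: before 44 Mb, a bound chosen with these changes known, 87 of 115 tested genes rose and 0 fell, with a median log2 change of 0.49. Of all tested genes 9.93% rose and 10.6% fell. No subunit gene tested here lies in that stretch. UQCC1, an assembly factor of complex III, rose with a log2 change of 0.22 (limma adjusted p = 0.0172). Of the 23 called genes on these lists and the liver marker list, 12 kept the call without each library in turn. The other 11 lost it without at least 1 library, at limma adjusted p = 0.0507 to 0.124. These were NDUFAF4, TMEM126B, TMEM186, COX14, COA4, PET117, ATPAF1, YY1, COQ7, SUCLG2 and VDAC3.

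Of 13 mitochondrially encoded subunits, 2 fell (15.4%) and 0 rose, where 10.6% of all tested genes fell and 9.93% rose. MT-ND1, a membrane subunit of complex I, had 2626, 2766, 2929.8 and 3265 FPKM in DNMT3A libraries, against 3979, 3937, 4708 and 4676 FPKM in control libraries. The groups were apart, with a log2 change of -0.58 (limma adjusted p = 0.00379). MT-ND3, also of complex I, fell by 0.34 on the log2 scale (limma adjusted p = 0.0131). MT-CO1 and MT-CO2, the catalytic subunits of complex IV, had log2 changes of -0.15 and -0.20 and did not pass. Without a filter on low values neither MT-ND1 nor MT-ND3 passed (limma adjusted p = 0.277 and 0.614), and with quantile normalization MT-ND3 did not pass (limma adjusted p = 0.314).

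In the citric acid cycle, which feeds the chain, 3 of 13 tested genes fell (23.1%) and 0 rose. The background for each list in this paragraph was 10.6% lower and 9.93% higher over all tested genes. Fumarate hydratase (FH) had 42.6, 41.9, 45.4 and 45.2 FPKM in DNMT3A libraries, against 51.7, 59.3, 56.1 and 51.2 FPKM in control libraries (log2 change -0.31, limma adjusted p = 0.00827). Malate dehydrogenase (MDH2) also fell by 0.31 on the log2 scale (limma adjusted p = 0.0144), and both calls held without each library in turn. Citrate synthase (CS), often used to gauge mitochondrial content, had a log2 change of -0.05 (limma adjusted p = 0.537). Of 14 tested electron carriers and their partners 1 fell, COQ7 of coenzyme Q synthesis, by 0.19, and cytochrome c (CYCS) had a log2 change of -0.11 without a call. Of 17 tested genes of mitochondrial import and the outer membrane 1 fell, the porin VDAC3, by 0.26, while VDAC1 and TOMM20 had log2 changes of -0.05 and -0.09. Of 12 tested regulators of respiratory genes 1 fell, YY1, by 0.17 (limma adjusted p = 0.0477), and its call was lost whichever of the 8 libraries was left out. The regulators whose motifs were searched, NRF1 and the GABP subunit gene GABPA, had log2 changes of -0.04 and -0.14 without a call; both are named here after their values were seen.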

How the data were processed

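Per the labels' protocols, poly(A) RNA was captured on beads, fragmented and copied from random hexamer primers, fragments of 370 to 420 bp were kept, and no step that marks strand is named. The submitters' processing notes name HISAT2 2.0.5 and hg38; the counting program is not given in the sources used here. FPKM were deposited for each gene and library, per the file headers. Multiplied by gene length, 100% of values were whole multiples of 1 step (tolerance 0.01 of a read), which gave 15911019 to 17677093 recovered reads per library; tested subunits had 32 to 13801 reads each. Reads are not independent molecules, so depth sets only the counting error. No pair of libraries was a duplicate (chi-square per degree of freedom of recovered reads at least 4.67). Gene coordinates are those of hg38 in the table and equalled GENCODE 29 for all 30436 genes with reads; principal transcripts are its APPRIS ones.

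Sample titles gave the groups. Genes averaging at least 1 FPKM were compared on log2(FPKM + 1) with limma 3.58.1 (intensity trend) in R 4.3.3, after a check on simulated data. Alternatives were a pseudocount of 0.1, no filter or a filter of 5 FPKM, median-ratio scaling, quantile normalization, a length correction, no trend, array weights, a replicate block, protein-coding genes only and leaving out each library; voom and a length and GC correction were added after the data were seen. Members and lists were chosen with earlier results of these data known. Genes given in full were those past the threshold and, in each complex, the 3 with the highest mean and the one with the largest change; from each related list the rule allowed up to 4 called genes and the 2 with the highest mean. Other genes were named after their values were seen. The result of 1 tested subunit is not reported here by itself; counts and medians include it. Promoter sequences are RefSeq's, with 4 members matched by synonym on the same chromosome.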

Additional observations from a re-analysis of the deposited data

Results flagged for a closer look

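Of 158 groups of 4 libraries examined, 2 for each of the 78 tested subunits and 2 for DNMT3A, 16 held 1 library far from the other 3 by Dixon's test at the 95% level, where chance gives about 1 in 20 groups. DNMT3A library 4 was the low one for COX6B1 (45.0 FPKM, against 81.9 to 82.6 in the other DNMT3A libraries), COX5A (51.6 FPKM) and UQCR10 (37.8 FPKM). DNMT3A library 2 was low for ATP5PB (46.0 FPKM), and DNMT3A library 3 high for COX7B (17.1 FPKM). DNMT3A library 1 was high for NDUFS1 (19.8 FPKM) and low for NDUFA12 (13.7 FPKM). Control library 1 was high for COX8A (94.6 FPKM), NDUFA1 (31.6 FPKM) and COX7A2L (16.7 FPKM) and low for ATP5IF1 (17.0 FPKM). Control library 4 was low for UQCRC1 (75.2 FPKM), NDUFB6 (18.2 FPKM) and NDUFV3 (4.60 FPKM). Control library 3 was low for NDUFB8 (1.01 FPKM), and control library 2 high for ATP5S (1.97 FPKM).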

How the results depend on the processing

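The 9 calls among subunits, all lower, stayed 8 to 11 with the other pseudocount, the filter of 5 FPKM, median-ratio scaling, quantile normalization, no trend, the length correction, the length and GC correction and the replicate block. The count was 4 without a filter, where 30436 genes were tested, 16 with array weights (13 lower and 3 higher), and 14 both among protein-coding genes only and with voom. Leaving out 1 library gave 4 to 13 calls among subunits, 1491 to 2454 among all genes (against 2389 with all libraries) and 9 to 22 in the related lists (against 20). By complex these ranges were 1 to 3 for complex I, 0 to 2 for II, 2 to 3 for III, 0 to 3 for IV and 1 to 4 for V. Without a filter complex II had 0 calls, complex IV 0, complex V 1 and the related lists 8. Array weights gave 4 calls in complex I, 4 in complex V, 35 in the related lists and 3756 in all genes, and the 5 FPKM filter gave 1531 in all genes. Complex I had 3 calls and complex IV 4 both among protein-coding genes only and with voom, complex I had 3 with the length and GC correction, and complex IV had 1 with quantile normalization. The median change of subunits stayed between -0.13 and -0.08. Of the subunits that the naming rule took, direction turned for UQCRC1 (0.014) and UQCRC2 (0.0048) with quantile normalization and for UQCRH without DNMT3A library 4; with 1 library left out its change ran from -0.19 to 0.052. Of all 78 tested subunits 17 turned under at least 1 alternative, 7 of them without DNMT3A library 4 and 7 with quantile normalization, and none of the 17 had a change beyond 0.11 in either direction. Apart from the numbers of genes and libraries tested, the cause of these shifts was not tested.

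Replicate numbers did not pair the libraries: deviations of same-numbered libraries had correlations of -0.08 to 0.16, and 1 of 4 DNMT3A libraries correlated best with the control of its own number. With the replicate number as a block 8 subunits fell, 3 in complex I, 1 in complex II and 0 in complex IV, and 6 of the 9 calls were kept. Changes near the standard error of about 0.08 were not resolved with 4 libraries a group, and genes of few reads, such as NDUFB8 with 32 to 77, carry the largest counting error.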
